A study of Arabidopsis thaliana with 6 samples.

Results

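Fasciclin-like arabinogalactan protein (FLA) genes were examined in RNA-seq libraries of Arabidopsis thaliana hypocotyl tissue. The 10 genes FLA1, FLA2, FLA6, FLA7, FLA8, FLA9, FLA10, FLA11, FLA12 and FLA13 were taken by their locus codes, and all 10 were among the 31276 genes of the deposited table. The tissue was hypocotyl, the embryonic stem, of the Col-0 accession, cut from 1-week-old seedlings, with no other genotype or treatment in the labels. The 7DAC group held 3 libraries of explants kept for 7 days on callus-inducing medium, on which cut tissue forms a mass of dividing cells. The 0DAC group held 3 libraries of explants taken straight after cutting. Values were TPM, transcript abundance per length scaled to a fixed total per library, so levels of different genes can be compared within a library. The number of reads behind a TPM value cannot be recovered, so the depth is unknown. Each SD given is a spread between libraries, and each SE comes from the limma fit described below.

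FLA proteins are secreted glycoproteins of the plant cell surface. They combine fasciclin domains, which are known from cell adhesion proteins of animals, with stretches rich in proline and small residues that carry arabinogalactan sugar chains, and most are held to the plasma membrane by a glycosylphosphatidylinositol (GPI) anchor. Of the genes described here, FLA1 is known from mutants with altered lateral root and shoot formation in tissue culture, and FLA11 and FLA12 from the secondary walls of stems, where they affect the strength and stiffness of the tissue.

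In the RefSeq annotation of TAIR10.1, which served for gene models and sequences (the submitters name TAIR10), the 10 genes lay on 5 chromosomes. FLA1 had 1 intron and the other 9 had none. Coding sequences fell into 2 lengths, from 1212 to 1275 bases for FLA1, FLA2, FLA8 and FLA10 and from 741 to 765 bases for the other 6. Among the 45 gene pairs the coding identity ran from 37.9% to 81.1%. FLA10 and FLA8 were 81.1% identical, FLA13 and FLA9 76.6%, FLA12 and FLA11 61.1%, and FLA2 and FLA1 58.1%. The closest pair outside these 4 was FLA6 and FLA9 at 64.2%.

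The most alike stretches of 75 coding bases without gaps are shown for the 2 closest pairs, because their members are read against each other below. Capitals mark the bases at which the members of a pair differ, 6 of 75 between FLA13 and FLA9 and 2 of 75 between FLA10 and FLA8.
FLA13 coding stretch, chr5:17761332-17761406, plus strand: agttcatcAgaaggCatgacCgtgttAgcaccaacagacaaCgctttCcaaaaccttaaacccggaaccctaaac
FLA9 coding stretch, chr1:983081-983155, minus strand: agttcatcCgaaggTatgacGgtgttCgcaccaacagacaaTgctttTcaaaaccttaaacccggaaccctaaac
FLA10 coding stretch, chr3:22500112-22500186, minus strand: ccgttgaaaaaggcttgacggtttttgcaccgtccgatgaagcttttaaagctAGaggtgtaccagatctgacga
FLA8 coding stretch, chr2:18743333-18743407, minus strand: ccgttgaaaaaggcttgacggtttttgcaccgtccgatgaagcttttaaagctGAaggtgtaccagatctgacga
The transcripts as a whole had few stretches in common. Of all windows of 50 bases along the FLA10 transcript, 4 of 1899 also occurred in another gene, and all 4 were in FLA8. FLA11 had 7 of 859 windows in AT5G03160, a gene on the opposite strand whose transcript model overlaps its own, and 7 members had none. How the authors counted common reads is not stated.

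Promoters are shown for the 2 tested members that were nearly absent at 7DAC (FLA9 and FLA13) and the 2 that rose (FLA10 and FLA12). They are the 250 bases before the annotated transcript start, read 5′ to 3′ on the strand of the gene. FLA6, too low for the test, was also near 0 at 7DAC (mean 0.173 TPM), and among the motifs searched its promoter held only TATAAA. Capitals mark matches, on either strand, to the motifs searched. These were the auxin response element TGTCTC and its high-affinity form TGTCGG, the G-box CACGTG, the TATA element TATAAA, the AC-II element ACCAACC of phenylpropanoid and vascular genes and its AC-I form ACCTACC, and the L1 box of epidermal genes in the form TAAATGCA or the form TAAATGTA.
FLA9 promoter, chr1:983545-983794, minus strand: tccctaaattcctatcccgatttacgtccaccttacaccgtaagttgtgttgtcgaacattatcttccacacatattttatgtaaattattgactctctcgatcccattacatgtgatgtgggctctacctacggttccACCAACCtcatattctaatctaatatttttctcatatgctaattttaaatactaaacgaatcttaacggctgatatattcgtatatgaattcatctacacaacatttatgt
FLA13 promoter, chr5:17760615-17760864, plus strand: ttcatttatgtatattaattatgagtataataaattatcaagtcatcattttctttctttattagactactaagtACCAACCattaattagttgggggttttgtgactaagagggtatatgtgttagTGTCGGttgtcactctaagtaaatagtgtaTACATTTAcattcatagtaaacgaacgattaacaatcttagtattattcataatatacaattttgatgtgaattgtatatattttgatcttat
FLA10 promoter, chr3:22501240-22501489, minus strand: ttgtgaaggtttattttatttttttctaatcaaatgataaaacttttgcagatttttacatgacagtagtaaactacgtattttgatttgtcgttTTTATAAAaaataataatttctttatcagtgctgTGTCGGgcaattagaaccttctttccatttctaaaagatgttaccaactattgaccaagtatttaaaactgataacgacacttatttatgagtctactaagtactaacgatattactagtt
FLA12 promoter, chr5:24326828-24327077, minus strand: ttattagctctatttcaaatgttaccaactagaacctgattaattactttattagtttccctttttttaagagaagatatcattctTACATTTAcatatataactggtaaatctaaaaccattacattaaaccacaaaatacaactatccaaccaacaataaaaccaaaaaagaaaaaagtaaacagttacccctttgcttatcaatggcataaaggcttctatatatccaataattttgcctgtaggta
FLA9 and FLA13 each held ACCAACC, 111 and 175 bases before the start, and none of the other members did. This motif was in 2.75% of the 27443 promoters of protein-coding genes. FLA13 and FLA10 each held TGTCGG, 123 and 121 bases before the start, and it was in 4.26% of promoters. TAAATGTA was in FLA13 and FLA12 and in 2.96% of promoters, and TATAAA was in FLA2, FLA6, FLA8 and FLA10, 4 of the 10 members, against 47.3% of promoters. The 2 TATAAA matches in FLA10 lie on opposite strands and overlap. TGTCTC was in FLA1 and FLA11 and in 11.1% of promoters. The 250 bases before FLA11 overlap the gene AT5G03180, and those before FLA2 overlap AT4G12731. The G-box was in 0 members and 6.63% of promoters, AC-I in 0 members and 1.17%, and the form TAAATGCA of the L1 box in 0 members and 1.56%.

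Before the results, 3 features of the libraries need stating. Nuclear protein-coding genes held 37.6% to 81.0% of the 1000000 TPM in 7DAC libraries and 59.5% to 86.4% in 0DAC libraries, with replicate 2 highest in both groups. All genes of the deposited table summed to 793808 to 908068 TPM at 7DAC and 811788 to 922411 TPM at 0DAC. Part of each 1000000 is thus not in the table. In TPM as deposited, 9 members were highest in replicate 2 at 7DAC and 7 were at 0DAC. All 6 libraries carry the tissue label callus, whereas the design text describes 0DAC tissue as freshly cut. LBD29, a factor of callus and lateral root founder cells, stood at 0.23, 0.91 and 0 TPM in the 7DAC libraries and at 51.4, 79.8 and 55.2 TPM in the 0DAC libraries, while the root stem cell factor PLT1 stood at 47.3 to 110.8 TPM at 7DAC and 1.92 to 2.83 TPM at 0DAC. In 0DAC replicate 3 the 4 markers of photosynthetic tissue summed to 557 TPM, against 47.5 and 69.7 TPM in the other two 0DAC libraries.

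The FLA transcript pool was smaller in 7-day callus and of a different make-up. The 10 genes summed to 121, 330.0 and 194 TPM in 7DAC replicates 1, 2 and 3, and to 781, 1874 and 891 TPM in 0DAC replicates 1, 2 and 3. The mean was 5.50-fold lower at 7DAC and the groups did not overlap. It was 3.89-fold lower without 0DAC replicate 2 and 7.50-fold lower without 7DAC replicate 2. As a share of nuclear protein-coding TPM, the 10 genes held 0.0367% ± 0.00434 at 7DAC and 0.158% ± 0.0512 at 0DAC (SD, n = 3 each). At 7DAC the pool was spread over FLA7, FLA1 and FLA8, with 21.8% ± 0.160, 20.8% ± 0.961 and 20.5% ± 0.668 of the members' sum (SD, n = 3), and FLA9 held 0.623% ± 0.502. At 0DAC FLA9 alone held 39.7% ± 1.35 and FLA2 29.9% ± 4.37 (SD, n = 3). These shares do not depend on the scale of a library. The 6 genes with short coding sequences held 29.6% ± 0.752 of the sum at 7DAC and 60.3% ± 2.65 at 0DAC (SD, n = 3 each). FLA9 is 1 of these 6 and made up most of that difference, which was therefore not shared by the class. The mean share of FLA13 was also lower at 7DAC (0% against 5.09%). Those of FLA7 (21.8% against 13.7%), FLA11 (3.26% against 1.43%) and FLA12 (3.80% against 0.274%) were higher at 7DAC.

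**Figure D1:**
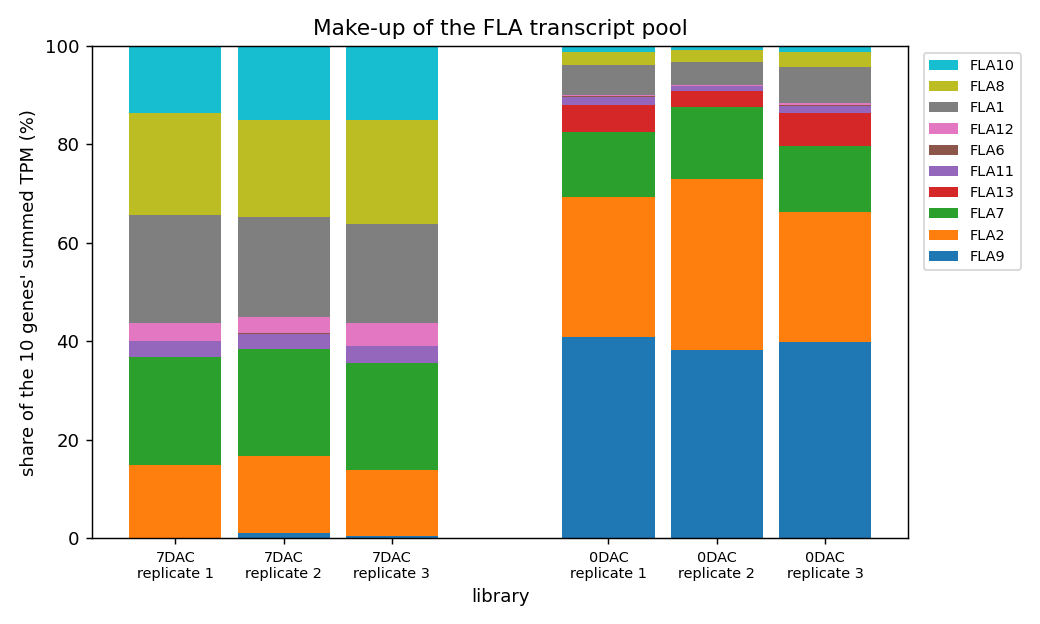
Share of each FLA gene in the summed TPM of the 10 genes (vertical axis, percent), 1 bar per library, 7DAC on the left and 0DAC on the right. FLA9 fills 0.149% to 1.15% of the 7DAC bars and 38.2% to 40.9% of the 0DAC bars.

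Of the 10 genes, 9 had at least 1 TPM in at least 3 libraries and were tested with all other such genes by limma-trend on log2(TPM + 1), a call being a Benjamini-Hochberg adjusted p below 0.05 over all tested genes. In callus 5 fell (FLA2, FLA7, FLA9, FLA11 and FLA13), 2 rose (FLA10 and FLA12) and 2 were not called (FLA1 and FLA8). FLA13 passed the filter only through its 0DAC libraries. Over all 18608 tested genes 29.6% were called, 16.2% as falls and 13.4% as rises. The TPM of the groups did not overlap for 7 of the 9, the same 7 genes, against 38.7% of all tested genes (19.5% lower and 19.3% higher). The median log2 difference was -1.12 for the 9 members and 0.05 for all tested genes. Median-of-ratios scaling divides each library by the median ratio of its genes to their geometric mean over the libraries, among genes above 0 in all 6. After it FLA1 also fell, so that 6 fell and 2 rose. Of all tested genes 64.9% were then called, 33.8% as falls and 31.1% as rises. The scaled groups did not overlap for 8 of the 9, with 6 lower and 2 higher at 7DAC, against 70.6% of all tested genes (36.3% lower and 34.3% higher). That scaling put the median of all genes at -0.01. Without 0DAC replicate 1, 0DAC replicate 3 or 7DAC replicate 3, the calls on the deposited scale dropped to 4, namely FLA2, FLA7, FLA9 and FLA13. With median-of-ratios scaling and 1 library left out, a choice made after seeing the data, 8 or 9 of the 9 were called.

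FLA9 (AT1G03870), the most abundant member at 0DAC, was almost lost in callus. It was at 0.180, 3.79 and 1.11 TPM in 7DAC replicates 1, 2 and 3, against 319.5, 717 and 356 TPM in 0DAC replicates 1, 2 and 3. Every 7DAC library lay far below every 0DAC library. The mean was 274-fold lower at 7DAC, and 719.5-fold lower without 7DAC replicate 2. On the log2(TPM + 1) scale the groups differed by -7.57 ± 0.44 as deposited (SE, limma adjusted p = 7.85e-64) and by -7.72 ± 0.34 after median-of-ratios scaling (SE, limma adjusted p = 1.16e-06). As deposited, limma replaced each gene's own variance by the fitted trend, so these SEs and p-values reflect the spread typical of the gene's level.

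FLA13 (AT5G44130), the closest relative of FLA9 among the members, was listed at 0 in all 3 7DAC libraries. In 0DAC replicates 1, 2 and 3 it was at 42.5, 58.1 and 59.8 TPM (limma adjusted p = 8.69e-38, and 1.12e-07 after scaling). It reached 1 TPM only in the 0DAC libraries and so passed the filter only through the group where it was high. That filter favoured its call and its lack of overlap. No fold is given against a group at 0. FLA6 (AT2G20520), which shares 64.2% of its coding bases with FLA9, was close to 0 throughout. Its values were 0, 0.520 and 0 TPM in the 7DAC libraries and 0.230, 0.360 and 1.82 TPM in the 0DAC libraries, too low for the test.

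FLA2 (AT4G12730) and FLA7 (AT2G04780) fell but stayed well above 0. FLA2 was at 17.9, 51.2 and 25.9 TPM in 7DAC replicates 1, 2 and 3, against 223, 651 and 235 TPM in 0DAC replicates 1, 2 and 3. All 3 callus libraries were lower. The mean was 11.7-fold lower, and 7.22-fold lower without 0DAC replicate 2 (with all libraries log2 difference -3.45 ± 0.43, SE, limma adjusted p = 3.52e-14). FLA7 was at 26.6, 72.2 and 42.0 TPM at 7DAC, against 103, 275 and 119 TPM at 0DAC. Its groups were also apart, with the highest 7DAC library below the lowest 0DAC library. The mean was 3.52-fold lower (log2 difference -1.77 ± 0.43, SE, limma adjusted p = 2.88e-04). Without 0DAC replicate 2 it was 2.36-fold lower (limma adjusted p = 0.0399).

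FLA11 and FLA12, the pair known from secondary walls, went opposite ways. FLA11 (AT5G03170) was at 3.94, 9.89 and 6.83 TPM in 7DAC libraries, against 13.4, 19.7 and 13.6 TPM in 0DAC libraries, a mean 2.26-fold lower (log2 difference -1.12 ± 0.44, SE, limma adjusted p = 0.0412). FLA12 (AT5G60490) was at 4.32, 10.5 and 9.02 TPM in 7DAC libraries, against 2.26, 2.85 and 3.40 TPM in 0DAC libraries, a mean 2.80-fold higher (log2 difference 1.16 ± 0.42, SE, limma adjusted p = 0.0220). Neither gene's groups overlapped. On the deposited scale both calls were lost with no filter on low values (limma adjusted p = 0.0625 for FLA11 and 0.0540 for FLA12). Leaving out single libraries gave limma adjusted p of 1.32e-03 to 0.181 for FLA11, called only without 7DAC replicate 2 or both libraries numbered 2, and of 2.34e-03 to 0.176 for FLA12, lost without any 0DAC library or 7DAC replicate 3. After median-of-ratios scaling the limma adjusted p was 1.54e-04 for FLA11 and 1.30e-03 for FLA12, and every library could be left out singly without losing either call.

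FLA10 (AT3G60900) rose and its relative FLA8 (AT2G45470) was not called. FLA10 was at 16.4, 49.7 and 29.4 TPM in 7DAC replicates 1, 2 and 3, against 9.58, 14.1 and 11.3 TPM in 0DAC replicates 1, 2 and 3. The lowest callus library stood above the highest 0DAC library, and the mean was 2.73-fold higher (log2 difference 1.25 ± 0.44, SE, limma adjusted p = 0.0187). That call was lost without 0DAC replicate 1, 0DAC replicate 3, 7DAC replicate 2 or 7DAC replicate 3 (limma adjusted p = 0.126, 0.130, 0.0523 and 0.137), and held after median-of-ratios scaling (limma adjusted p = 1.54e-04). FLA8 was at 25.2, 65.1 and 40.7 TPM at 7DAC, against 20.1, 49.0 and 27.3 TPM at 0DAC, and the groups overlapped (log2 difference 0.42 ± 0.44, SE, limma adjusted p = 0.508). It remained uncalled after median-of-ratios scaling (log2 difference 0.36 ± 0.17, SE, limma adjusted p = 0.0937) and was called as a rise when TPM was rescaled over nuclear protein-coding genes (log2 difference 0.82, limma adjusted p = 4.13e-03).

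FLA1 (AT5G55730), the member known from tissue culture, was among the least changed. It was at 26.5, 67.1 and 39.2 TPM in 7DAC libraries, against 48.3, 86.9 and 64.6 TPM in 0DAC libraries. The groups overlapped on the deposited scale (log2 difference -0.64 ± 0.43, SE, limma adjusted p = 0.283), and leaving out single libraries gave a call there only without 7DAC replicate 2 (log2 difference -0.98, limma adjusted p = 0.0160). After median-of-ratios scaling its values were 37.3, 42.9 and 40.1 at 7DAC and 61.8, 70.7 and 65.4 at 0DAC, with no overlap (log2 difference -0.70 ± 0.10, SE, limma adjusted p = 4.80e-04). Rescaled over nuclear protein-coding genes, which moved the median of all genes to 0.42, it was not called (log2 difference -0.25).

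**Figure D2:**
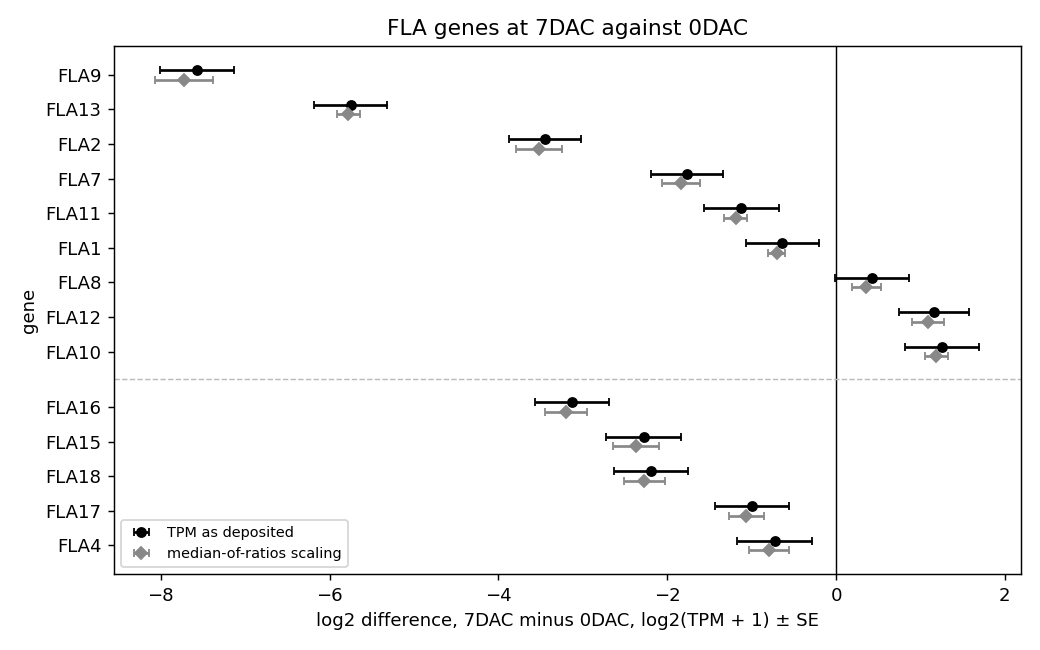
Log2 difference between 7DAC and 0DAC on log2(TPM + 1) with its SE from limma (horizontal axis) for the 9 tested FLA members above the dashed line and 5 further FLA genes below it. Black circles are TPM as deposited and grey diamonds are TPM after median-of-ratios scaling; the points of a gene lie close together and the SE is mostly smaller after scaling. The position of FLA13, listed at 0 at 7DAC, depends on the pseudocount of 1.

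The order of the members by TPM differed between the groups. At 7DAC FLA7, FLA1 and FLA8 led with means of 46.9, 44.3 and 43.6 TPM, and FLA1 stood above FLA8 in 2 of 3 libraries, so these neighbours did not differ beyond their spread. FLA10 and FLA2 followed at 31.8 and 31.7 TPM, with FLA10 above FLA2 in 1 of 3 libraries. FLA12, FLA11 and FLA9 came next at 7.94, 6.89 and 1.69 TPM, each above the next in 3 of 3 libraries, and FLA6 and FLA13 were at or near 0. At 0DAC the order was FLA9, FLA2, FLA7, FLA1, FLA13, FLA8, FLA11, FLA10, FLA12 and FLA6, and each stood above the next in 3 of 3 libraries.

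Ratios within a library, which do not depend on its scale, showed how related genes shifted against each other. The FLA2/FLA1 ratio was 0.675, 0.763 and 0.661 in 7DAC replicates 1, 2 and 3, against 4.61, 7.50 and 3.64 in 0DAC replicates 1, 2 and 3. FLA1 was thus the higher of the pair in callus and FLA2 in the fresh explant. The FLA12/FLA11 ratio was 1.1, 1.06 and 1.32 at 7DAC, against 0.169, 0.145 and 0.251 at 0DAC, so the 2 genes were near equal in callus and FLA11 was well above FLA12 in the explant. The FLA10/FLA8 ratio was 0.651, 0.764 and 0.722 at 7DAC, against 0.478, 0.287 and 0.415 at 0DAC, with FLA8 the higher gene in all 6 libraries. With a pseudocount of 1, the log2 ratio differed between 7DAC and 0DAC by -2.81 for FLA2/FLA1, 2.28 for FLA12/FLA11 and 0.83 for FLA10/FLA8. Each had p = 0.1 in an exact two-sided permutation test, both before and after Benjamini-Hochberg adjustment over the 4 pairs compared; 3 libraries against 3 cannot give a smaller p. The pair FLA13/FLA9 had p = 0.1 as well (exact permutation), but with FLA13 at 0 in callus its sign depended on the pseudocount and no ratio is given.

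**Figure D3:**
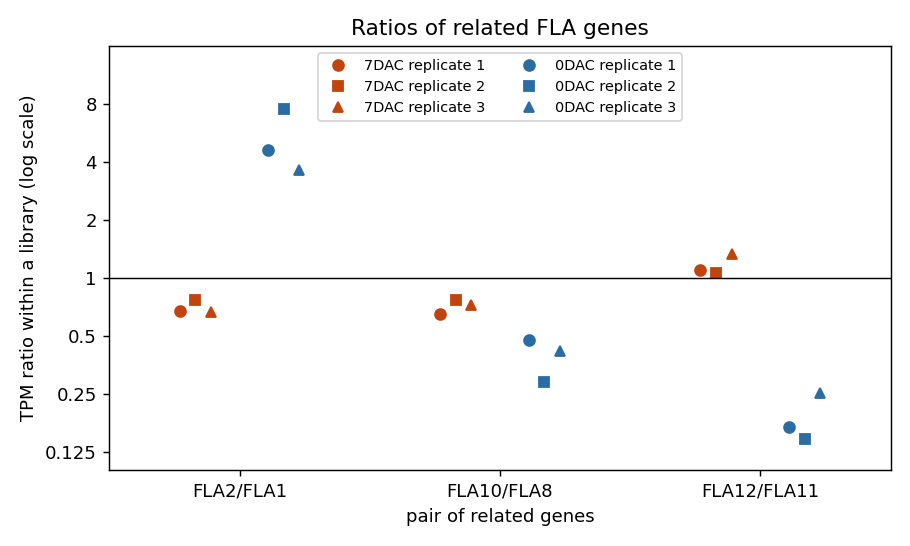
TPM ratio of 3 pairs of related FLA genes within each library (vertical axis, log scale; 1 marks equal levels), 1 point per library, 7DAC left of 0DAC. The groups are apart in all 3 pairs, and the FLA2/FLA1 points lie below 1 at 7DAC and above 1 at 0DAC.

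FLA genes outside the 10 members fell in callus or were not called. Of 11 such genes 5 were tested, and 3 fell, 0 rose and 2 were not called, with a median log2 difference of -2.20. Among all tested genes 16.2% fell and 13.4% rose, and 33.8% fell after median-of-ratios scaling. FLA16 (AT2G35860) was at 4.68, 14.7 and 6.27 TPM at 7DAC, against 45.7, 140.0 and 64.7 TPM at 0DAC, a mean 9.75-fold lower (limma adjusted p = 2.47e-11). Its fold was 15.2 without 7DAC replicate 2 and 6.45 without 0DAC replicate 2. FLA15 was 5.85-fold lower and FLA18 4.86-fold lower (limma adjusted p = 2.72e-06 and 5.29e-06), and without 7DAC replicate 2 or 0DAC replicate 2 FLA15 was 8.87-fold or 3.88-fold lower. FLA17 was at 8.55, 18.5 and 12.0 TPM at 7DAC, against 16.9, 46.8 and 21.6 TPM at 0DAC (limma adjusted p = 0.0739). FLA4 (also SOS5), needed for normal root growth under salt, averaged 10.8 ± 4.60 TPM at 7DAC and 18.9 ± 10.5 TPM at 0DAC (SD, n = 3 each, limma adjusted p = 0.224). FLA17 and FLA4 passed as falls after median-of-ratios scaling (limma adjusted p = 2.43e-03 and 0.0194), and on the deposited scale without 7DAC replicate 2 (limma adjusted p = 2.72e-03 and 0.0304). The other 6 did not exceed 0.670 TPM in any library, and FLA3 and FLA14, known from pollen, and FLA21 were listed at 0 throughout. Of the windows of 50 bases of FLA3 and FLA14, 96.3% and 100% also lie in a transcript model of a neighbouring gene.

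Other arabinogalactan proteins (AGPs), which carry the same kind of sugar chains without a fasciclin domain, mostly fell too. Of 27 listed, 25 were tested, and 15 fell, 1 rose and 9 were not called, with a median log2 difference of -1.41. Over all tested genes 16.2% fell and 13.4% rose. AGP17 averaged 0.210 ± 0.125 TPM at 7DAC and 172 ± 78.8 TPM at 0DAC, and AGP7 6.77 ± 4.29 TPM at 7DAC and 554 ± 210.0 TPM at 0DAC (SD, n = 3 each), with limma adjusted p = 6.41e-54 and 1.11e-44. AGP17 reached 1 TPM only in the 0DAC libraries and so passed the filter only through its higher group. AGP5 was the rise, at 14.6 ± 7.48 TPM at 7DAC and 1.87 ± 0.523 TPM at 0DAC (SD, n = 3 each, limma adjusted p = 5.95e-07). After median-of-ratios scaling 18 fell and 3 rose, against 33.8% falls and 31.1% rises over all tested genes.

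Genes of the machinery that modifies and anchors these proteins were mostly not called on the deposited scale. Among 22 genes of arabinogalactan glycosylation, 19 were tested, and 4 fell, 3 rose and 12 were not called, with a median log2 difference of 0.20. On this scale 29.6% of all tested genes were called, 16.2% as falls and 13.4% as rises. The fucosyltransferase gene FUT6 was 5.37-fold higher at 7DAC (limma adjusted p = 2.98e-05) and the galactosyltransferase gene GALT31A 2.57-fold higher (limma adjusted p = 0.0393). Without 7DAC replicate 2 FUT6 was 3.29-fold higher, and the GALT31A call was lost without any single library other than 7DAC replicate 1 (limma adjusted p of 0.0700 to 0.191). P4H5, a prolyl 4-hydroxylase that makes the hydroxyproline to which sugars are joined, was 3.05-fold lower (limma adjusted p = 1.01e-03), and AT1G67330, annotated as a methyltransferase-like gene, averaged 1.68 ± 1.65 TPM at 7DAC and 35.3 ± 7.09 TPM at 0DAC (SD, n = 3 each, limma adjusted p = 2.89e-17). After median-of-ratios scaling 8 fell and 9 rose, and 6 fell and 10 rose when TPM was rescaled over nuclear protein-coding genes. The first scaling called 64.9% of all tested genes, and with the second 70.3% of all calls were rises. Of 6 GPI anchor genes 0 were called by limma on the deposited scale, and 2 had an unadjusted p below 0.05. Median-of-ratios scaling gave 2 rises and 1 fall among them, and rescaling over nuclear protein-coding genes 4 rises and 0 falls. SETH2, of the first step of GPI synthesis, averaged 19.4 ± 5.35 TPM at 7DAC and 9.20 ± 1.52 TPM at 0DAC (SD, n = 3 each, limma adjusted p = 0.0828), and AT3G27325 averaged 19.2 ± 9.27 TPM at 7DAC and 16.4 ± 7.66 TPM at 0DAC (SD, n = 3 each, limma adjusted p = 0.775).

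Genes tied to FLA4 signalling were mixed, with 1 rise, 1 fall and 3 not called among 5 tested. FLA4 itself is 1 of the 5 and 1 of the 3 not called, so it is counted both here and among the other FLA genes above. Of all tested genes 13.4% rose and 16.2% fell. ACS9, an ethylene precursor synthase, was at 0.220, 0.110 and 0.310 TPM at 7DAC, against 5.75, 41.2 and 6.13 TPM at 0DAC (limma adjusted p = 4.10e-17), and 0DAC replicate 2 stood far above the others. The rise was ACS5, also an ethylene precursor synthase, at 2.00, 7.17 and 2.02 TPM at 7DAC, against 0.340, 0.950 and 0.110 TPM at 0DAC. ACS9 reached 1 TPM only in the 0DAC libraries and ACS5 only in the 7DAC libraries. Each thus passed the filter only through its higher group. The receptor kinase genes FEI1 and FEI2 were not called on the deposited scale (limma adjusted p = 0.453 and 0.977). FEI1 fell on the median-of-ratios scale, with a log2 change of -0.54 (limma adjusted p = 3.07e-03). On that scale 1 of the 5 rose and 3 fell, FLA4 among the falls. Rescaled over nuclear protein-coding genes, 2 rose and 1 fell. Over all tested genes 31.1% rose and 33.8% fell with median-of-ratios scaling, and 70.3% of calls were rises with the nuclear protein-coding scaling.

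Secondary wall genes, the setting in which FLA11 and FLA12 are known, were mostly not called on the deposited scale. Of 16 listed, 13 were tested, with 1 rise, 0 falls and a median log2 difference of 0.19. Across all tested genes 13.4% rose and 16.2% fell. The rise was the vessel factor VND7, at 2.32 ± 0.723 TPM at 7DAC and 0.700 ± 0.121 TPM at 0DAC (SD, n = 3 each, limma adjusted p = 0.0166). It reached 1 TPM only in the 7DAC libraries, and its call was lost without 0DAC replicate 1, 0DAC replicate 3 or 7DAC replicate 3 (limma adjusted p = 0.0735, 0.0558 and 0.0972) and without the variance trend (limma adjusted p = 0.0595). XCP1, a protease of vessels, averaged 38.8 ± 10.5 TPM at 7DAC and 49.5 ± 4.15 TPM at 0DAC, and the xylan synthesis gene IRX14 14.3 ± 5.50 TPM at 7DAC and 21.9 ± 7.79 TPM at 0DAC (SD, n = 3 each, limma adjusted p = 0.564 and 0.334). The balance of rises and falls among these calls differed between scalings, and so did the balance over all genes. As deposited, 45.3% of all calls were rises. The share was 47.9% with median-of-ratios scaling, 55.1% with quantile normalization and 70.3% with rescaling over nuclear protein-coding genes. The secondary wall genes called also differed. XCP1 and IRX14 fell with median-of-ratios scaling and were not called with rescaling over nuclear protein-coding genes. There were 1 rise and 5 falls among the 13 on the median-of-ratios scale, 3 rises and 4 falls with quantile normalization, and 5 rises and 0 falls when TPM was rescaled over nuclear protein-coding genes.

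Marker lists of several tissues differed in how they moved between the groups, where 16.2% of all tested genes fell and 13.4% rose. All 4 epidermal markers (ATML1, PDF1, FDH and CER6) fell, and their sum was 19.2 to 73.8 TPM at 7DAC and 296 to 614 TPM at 0DAC. All 4 photosynthetic markers fell, with sums of 8.17 to 14.7 TPM at 7DAC and 47.5 to 557 TPM at 0DAC. Of 3 phloem markers 2 fell (sums of 9.28 to 18.3 TPM at 7DAC and 20.0 to 23.0 TPM at 0DAC), and of 4 xylem vessel markers (XCP1, CESA4, CESA7 and CESA8) 0 were called, with 0 at an unadjusted limma p below 0.05 and 1 fall after scaling (sums of 42.7 to 78.4 TPM at 7DAC and 56.8 to 69.9 TPM at 0DAC). These 4 are also in the secondary wall list above, so both lists rest on the same genes there, and XCP1 alone gave 29.5 to 50.2 TPM at 7DAC and 45.4 to 53.7 TPM at 0DAC. Of 6 markers of callus and root founder cells 3 rose and 2 fell, and they summed to 162 to 373 TPM at 7DAC and 210.0 to 281 TPM at 0DAC. The photosynthetic marker LHCB1.1 and the founder marker LBD29 reached 1 TPM only in 0DAC libraries. No marker list was at 0 in either group. In bulk tissue fewer cells of a type and less RNA per cell cannot be told apart, and the part of these tissues in the FLA results was not tested.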

How the data were processed

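The deposited table held TPM for 31276 genes in 6 libraries, computed by the authors; RSEM 1.3.1, STAR 2.7.10a and the build TAIR10 are listed in the submitters' processing notes, without a role for each. All library columns were used. The annotation, filters and sequencing depth are not given in the sources used here. Per the labels, RNA came from TransZol Up extraction and TruSeq libraries.

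The 10 members and all gene lists were chosen with earlier results of these data known. Genes with at least 1 TPM in at least 3 libraries (18608) were tested by limma-trend (limma 3.58.1, R 4.3.3) on log2(TPM + 1) as deposited, 7DAC against 0DAC, and p-values were adjusted by Benjamini-Hochberg over these genes. Folds are ratios of mean TPM, while log2 differences carry the pseudocount of 1 and understate changes of low genes. Nothing in the labels says that replicates came from separate cultures or ties equal replicate numbers together, so p-values speak only for these libraries. As deposited, they rest on the spread between libraries typical of a gene's level, not on each gene's own spread.

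Named were all members, every tested FLA gene, and from each list up to 2 rises and 2 falls with a mean of at least 5 TPM, or else the 2 most abundant tested genes. ACS5 and VND7 were named outside that rule after their values were seen. FEI1 and FEI2 were also named outside it. Markers were planned as list sums, and LBD29, PLT1 and LHCB1.1 were singled out beyond that. Alternatives were other scalings, pseudocount, filters, no variance trend, a replicate block and left-out libraries. Gene names, gene models and sequences came from RefSeq TAIR10.1, and coding sequences were aligned with Biopython 1.88. Tables and figures used Python 3.11.15, pandas 2.3.3 and matplotlib 3.10.9.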

Additional observations from a re-analysis of the deposited data

How the results depend on the processing

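Of 197 alternative log2 differences of the 9 tested members 0 changed sign. Calls over all genes numbered 5512 as deposited, 12081 with median-of-ratios scaling, 13135 with scaling over nuclear protein-coding genes (70.3% of them rises, against 45.3% as deposited), 11755 with quantile normalization, 10119 with the replicate block and 11996 with the block after median-of-ratios scaling; the cause was not tested. In the same 5 settings the calls were 17, 16, 17, 16 and 17 for glycosylation (7 as deposited), 3, 4, 3, 1 and 3 for GPI anchor genes (0), and 6, 5, 7, 4 and 6 for secondary wall genes (1). Similar totals hid different balances and different genes. The 5 secondary wall calls with nuclear protein-coding scaling were all rises, and 5 of the 6 with median-of-ratios scaling were falls. Without the variance trend GPI anchor genes had 1 call and secondary wall genes 0. The other FLA genes had 5 calls (3 as deposited) and FLA4 signalling 4 (2) in all of these except the nuclear protein-coding scaling. FLA4 belongs to both lists. With a minimum of 5 TPM, which tests fewer genes, FLA4 signalling had 1 call and secondary wall genes 0.

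FLA1 was called with median-of-ratios scaling (-0.70), quantile normalization (-0.41), the replicate block (-0.64) and the block after scaling (-0.70). FLA8 was called with nuclear protein-coding scaling (0.82), quantile normalization (0.55) and the block after scaling (0.36). FLA11 (-1.12) and FLA12 (1.16) were not called without a filter. With a pseudocount of 0.1 the FLA13/FLA9 log2 ratio difference turned to -0.42, from 1.82 with 1, because FLA13 was at 0 in callus.

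Leaving out both libraries numbered 2, also added after seeing the data, gave 7568 calls over all genes, 7 for the members, 1 for GPI anchor genes and 2 for secondary wall genes. Leaving out single libraries gave 3560 to 7219 calls over all genes, 4 to 7 for the members, 3 to 5 for the other FLA genes, 14 to 20 for other AGPs, 3 to 8 for glycosylation, 0 to 2 for GPI anchor genes, 2 to 3 for FLA4 signalling and 0 to 3 for secondary wall genes. The log2 differences ran from -0.98 to -0.33 for FLA1, 0.091 to 0.77 for FLA8, 0.87 to 1.65 for FLA10, -1.39 to -0.82 for FLA11 and 0.94 to 1.49 for FLA12. After median-of-ratios scaling the same gave 10540 to 12644 calls over all genes and 8 to 9 for the members, a choice made after seeing the data. FLA8 then ran from 0.23 to 0.54 and was called only without 0DAC replicate 2.

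Same-numbered libraries had correlations of their deviations over genes of 0.0970, 0.156 and 0.0316, and 7DAC replicate 3 correlated more with 0DAC replicate 1 (0.124). A correlation ignores a shift common to all genes, so it cannot show whether equal numbers share a library scale. The median-of-ratios scaling factors of replicates 1, 2 and 3 were 0.711, 1.57 and 0.978 at 7DAC and 0.781, 1.23 and 0.987 at 0DAC. Whether the replicate numbers pair the libraries was not tested. With the block 8 of the 9 members were called. TPM gives no depth, so values near 0, such as those of FLA6, cannot be given a detection limit.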

Other observations

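The genes most like FLA10 over the 6 libraries, by Euclidean distance of mean-centred log2(TPM + 1), were AGL16 (distance 0.0746), a MADS-box factor, the DNA repair gene RAD54 (0.183) and AT5G10080 (0.241), an aspartyl protease family gene. AGL16 averaged 24.0 TPM at 7DAC and 8.70 TPM at 0DAC. Those most like FLA9 were AT1G09310 (distance 0.467), of unknown function, GASA6 (0.578), of the gibberellin-regulated GASA family, and AT5G24570 (0.813), uncharacterised. The first averaged 4.36 TPM at 7DAC and 858 TPM at 0DAC, and GASA6 2.67 TPM at 7DAC and 678 TPM at 0DAC. The nearest genes were chosen among all tested genes, which share the same 6 libraries and their scale.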
